A study of Mus musculus with 30 samples.

Results

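The genes described here are 8 transcripts that macrophages, dendritic cells and T cells use in responses to interleukin-4 (IL-4), namely the chemokine genes Ccl17, Ccl22 and Ccl24, the chemokine receptor gene Ccr4, the lectin genes Mrc1 and Mgl2, the chitinase-like gene Chil3 and the PD-1 ligand gene Pdcd1lg2. They were picked by symbol from the 39676 genes of the count table, with their levels across tumor types and their correlations within types already known. Their levels, fold changes and correlations with each other are therefore a description and carry no test. All 8 passed the filter on low counts, which kept 15926 genes. RNA was counted in 30 whole tumors taken 8 days after inoculation, 10 of each of 3 types. The tumors grew from B16-F10 melanoma cells placed under the skin of female C57BL/6 mice, typically 8 to 12 weeks old. B16.IFNα4.gB.luc cells carried a retroviral vector for the type I interferon IFNα4 with eGFP, B16.IFNα9.gB.luc cells 1 for IFNα9 with eGFP, and B16.GFP.gB.luc cells the vector with GFP alone. All 3 lines also carried glycoprotein B of herpes simplex virus with CFP, and firefly luciferase with puromycin resistance, and the tumors are called GFP, IFNα4 and IFNα9 tumors here. Interferon came from the viral promoter in the cancer cells and was not under the control of the host.

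IL-4 and IL-13 signal through receptors that share the IL-4Rα chain, and the kinases bound to these receptors activate the transcription factor STAT6. In macrophages and dendritic cells this program raises CCL17 and CCL22, which attract cells that bear CCR4, such as type 2 helper T cells and regulatory T cells. It also raises CCL24, a ligand of the eosinophil receptor CCR3, the mannose receptor CD206 (Mrc1), the galactose-type lectin CD301b (Mgl2), the secreted protein Ym1 (Chil3) and PD-L2 (Pdcd1lg2), which binds PD-1 on T cells. In bulk tumor RNA each of these transcripts also depends on how many cells of its source are present.

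STAT6 binds palindromes in which TTC and GAA stand 4 bases apart, whereas other STAT dimers favour a gap of 3 bases. The 250 bases upstream of the start site were read for 7 of the 8 genes from RefSeq (GRCm38.p6), and no entry was found for Ccl24. On both strands, TTCNNNNGAA was searched as the STAT6-type element, TTCNNNGAA as the other STAT type, GAAANNGAAA as the core of interferon-stimulated response elements and GGAANTCCC as a κB-type site. Among 32851 promoters of this length, 5.85%, 7.02%, 2.98% and 1.43% held a match, in that order. The promoters of Ccl17, Chil3 and Pdcd1lg2 held at least 1 match and are shown for that reason. Capitals mark the matches, and none of them overlapped another.
Ccl17 promoter, chr8:94810203-94810452, plus strand: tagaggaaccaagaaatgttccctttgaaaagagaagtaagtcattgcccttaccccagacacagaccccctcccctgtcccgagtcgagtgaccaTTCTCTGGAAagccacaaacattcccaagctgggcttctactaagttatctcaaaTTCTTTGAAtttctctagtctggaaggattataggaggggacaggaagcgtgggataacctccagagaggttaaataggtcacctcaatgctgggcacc
Chil3 promoter, chr3:106167565-106167814, minus strand: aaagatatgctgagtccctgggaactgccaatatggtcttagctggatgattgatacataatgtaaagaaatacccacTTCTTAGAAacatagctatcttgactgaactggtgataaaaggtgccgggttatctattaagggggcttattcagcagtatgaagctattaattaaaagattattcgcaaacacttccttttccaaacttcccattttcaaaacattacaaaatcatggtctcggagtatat
Pdcd1lg2 promoter, chr19:29410669-29410918, plus strand: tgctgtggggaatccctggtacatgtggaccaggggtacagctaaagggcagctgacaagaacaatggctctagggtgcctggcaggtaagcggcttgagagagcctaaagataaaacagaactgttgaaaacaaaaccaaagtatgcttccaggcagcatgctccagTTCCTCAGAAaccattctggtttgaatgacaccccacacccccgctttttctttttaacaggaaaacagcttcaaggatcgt
The Ccl17 promoter held TTCTCTGGAA from -154 to -145 and TTCTTTGAA from -99 to -91, counted from the start site. The Pdcd1lg2 promoter held TTCCTCAGAA from -82 to -73, and the Chil3 promoter held TTCTTAGAA from -172 to -164. Those of Ccl22, Ccr4, Mrc1 and Mgl2 had no match to any of the 4 motifs in this window. The RefSeq start sites of these genes differ from the gene bounds in GENCODE M21 (GRCm38) given below. The Ccr4 window (114496545-114496794, minus strand) lay inside the GENCODE gene, and those of Ccl22, Mrc1 and Mgl2 ran past the GENCODE gene start. A match is a string of letters and shows no binding.

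Each tumor had between 14598517 and 19788383 counts in total. Ifna4 had 81 to 188 counts in IFNα4 tumors and Ifna9 had 55 to 148 in IFNα9 tumors, and each had 0 counts in all tumors of the other types. Levels are given as CPM, the counts scaled by library size and TMM factor. In whole tumors, fewer cells of a type and less RNA per cell cannot be told apart. GFP tumor 7 was low in markers of nearly all host cells, and it was the lowest GFP tumor for 5 of the 8 genes. Where it sets the lowest level of GFP tumors, and for most correlations it enters, the value without it is given too. The 2 comparisons with GFP tumors share those tumors, so their values are set side by side only.

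The 8 genes did not change as a unit. In IFNα4 compared with GFP tumors, Ccr4, Chil3 and Pdcd1lg2 were higher and Ccl17, Ccl24 and Mrc1 lower past the threshold, so 6 of 8 passed where 65.4% of all genes tested did (31.3% higher, 34.1% lower). Their median log2 fold change was -0.04, beside 0.01 for all genes. In IFNα9 compared with GFP tumors, Ccl17, Ccl22, Ccr4, Mgl2 and Pdcd1lg2 were higher and 0 lower, so 5 of 8 passed where 55.7% of all genes did (26.9% higher, 28.9% lower). The median was 0.92, beside -0.0031 for all genes. Between the interferon types, Ccl17, Ccl22, Ccl24, Mrc1, Mgl2 and Pdcd1lg2 were higher and Chil3 was lower in IFNα9 tumors, so 7 of 8 passed where 17.8% of all genes did (10.5% higher, 7.25% lower). The median was 0.98, beside -0.0055 for all genes. The threshold was an adjusted p under 0.05 by the quasi-likelihood test of edgeR, adjusted over all genes tested (Benjamini-Hochberg).

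**Figure D1:**
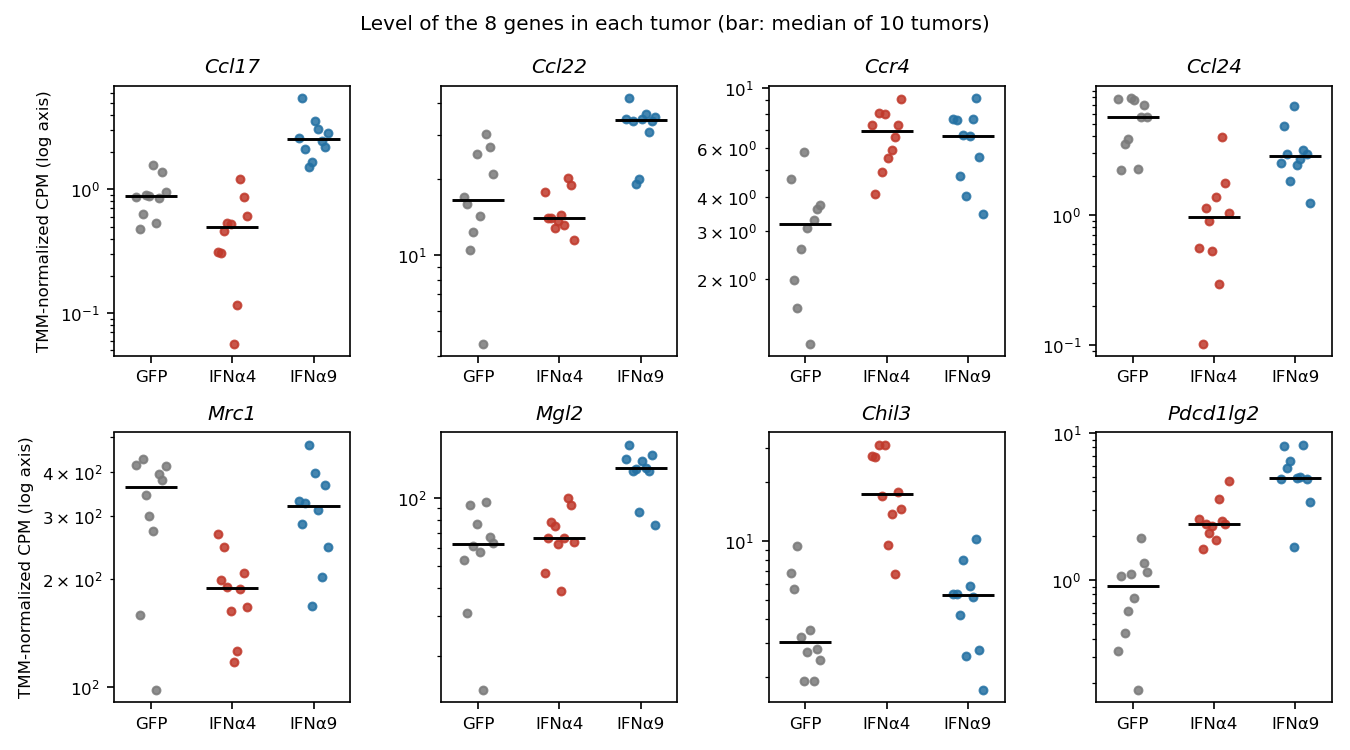
Level of each of the 8 genes in CPM (log axis) in each of 30 tumors by type, with 1 point per tumor and a bar at the median of 10 tumors. Ccl17 in all 10 IFNα9 tumors lay above its level in all 10 IFNα4 tumors, while Chil3 was highest in IFNα4 tumors (median 17.4 CPM).

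Ccl17 and Ccl22 encode the 2 ligands of CCR4 and lie on the plus strand of chromosome 8, Ccl22 at 94745590-94751699 and Ccl17 at 94810453-94812036 in GENCODE M21 (GRCm38), 58754 bases apart. Ccl17 was a low transcript, with a lowest, median and highest level of 0.481, 0.877 and 1.56 CPM in GFP tumors. In IFNα4 tumors these were 0.0566, 0.493 and 1.21 CPM, the lowest standing for 1 count. In IFNα9 tumors they were 1.51, 2.54 and 5.43 CPM. Ccl17 was the only one of the 8 genes whose levels did not overlap between a pair of types, all 10 IFNα9 tumors lying above all 10 IFNα4 tumors, where 2.83% of all genes tested did not overlap. Against GFP tumors none of the 8 was free of overlap, where 18.5% of all genes were for IFNα4 and 7.79% for IFNα9 tumors. Its log2 fold change was 2.44 ± 0.32 (SE) between these types, or 5.43-fold. Against GFP tumors it was 1.60 ± 0.31 for IFNα9 and -0.85 ± 0.33 for IFNα4 tumors. The lower level in IFNα4 tumors was not past the threshold without GFP tumor 6, which left -0.73.

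Ccl22 was also highest in IFNα9 tumors. Its lowest, median and highest levels were 4.46 (10.5 without tumor 7), 16.5 and 30.3 CPM in GFP tumors and 11.5, 14.03 and 20.1 CPM in IFNα4 tumors. In IFNα9 tumors they were 19.1, 34.3 and 41.8 CPM. All of these tumors but tumors 4 and 5 were above every tumor of either other type. The log2 fold change was 0.85 ± 0.21 against GFP and 1.09 ± 0.21 against IFNα4 tumors, whereas IFNα4 against GFP tumors gave -0.24 ± 0.21 and did not pass. Cx3cl1, the gene of a chemokine with a different receptor, lies between Ccl22 and Ccl17 and did not pass in any of the 3 comparisons, with log2 fold changes of 0.17 ± 0.20, -0.13 ± 0.20 and -0.30 ± 0.20 (edgeR, adjusted p = 0.46, 0.60 and 0.33).

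Ccr4, the receptor of both ligands (chromosome 9, 114490316-114504916, minus strand), was higher in both interferon types. Its lowest, median and highest levels were 1.16 (1.56 without tumor 7), 3.17 and 5.83 CPM in GFP tumors, 4.08, 6.96 and 9.08 CPM in IFNα4 tumors and 3.44, 6.69 and 9.16 CPM in IFNα9 tumors. The interferon types overlapped over nearly their whole range. The log2 fold change was 1.08 ± 0.22 and 1.00 ± 0.22 against GFP tumors and -0.08 ± 0.22 between the interferon types. The receptor thus differed little where its ligand Ccl17 differed most. Beside it, 6 of 6 tested regulatory T cell genes were higher in each interferon type than in GFP tumors and 0 of 6 passed between the interferon types. Foxp3, which defines that lineage, had log2 fold changes of 2.17 ± 0.34 and 2.34 ± 0.34 (edgeR, adjusted p = 2.6e-06 and 1.7e-06). The summed level of that list ran from 13.3 to 65.9 CPM in GFP tumors (from 30.8 without tumor 7), from 74.3 to 102 CPM in IFNα4 and from 44.2 to 110.6 CPM in IFNα9 tumors, and its part in the Ccr4 values was not tested. The pattern was not particular to regulatory T cells. Of the general T cell genes, 9 of 9 and 8 of 9 were higher than in GFP tumors, and 0 of 9 passed between the interferon types.

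Ccl24 (chromosome 5, 135569937-135573049, minus strand) had the lowest fold change of the 8 genes in IFNα4 tumors. Its lowest, median and highest levels were 2.19, 5.64 and 7.86 CPM in GFP tumors. They were 0.102, 0.962 and 3.97 CPM in IFNα4 tumors, the lowest standing for 2 counts, and 1.23, 2.81 and 6.87 CPM in IFNα9 tumors. In all, 9 of 10 IFNα4 tumors, tumor 8 being the exception, were below every GFP tumor. The log2 fold change was -2.19 ± 0.39 for IFNα4 and -0.76 ± 0.37 for IFNα9 against GFP tumors, and 1.43 ± 0.39 between the interferon types. The value for IFNα9 against GFP tumors did not pass, but it did without GFP tumor 2 (-0.85), without IFNα4 tumor 8 (-0.76) and without IFNα9 tumor 5 (-0.96). Ccl24 thus stood apart from the CCR4 ligands, since it was not higher in IFNα9 than in GFP tumors. Ccl26, its neighbour and another CCR3 ligand gene, had 0 counts in all tumors.

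The lectin genes differed from each other. Mrc1 (chromosome 2, 14229392-14332057, plus strand) had lowest, median and highest levels of 97.8 (158.5 without tumor 7), 362 and 435 CPM in GFP tumors, 118, 189 and 268 CPM in IFNα4 tumors and 169, 320 and 476 CPM in IFNα9 tumors. It was lower in IFNα4 tumors, with log2 fold changes of -0.78 ± 0.21 against GFP and 0.73 ± 0.21 for IFNα9 against IFNα4 tumors. IFNα9 and GFP tumors spanned much the same range (-0.05 ± 0.21). Mgl2 (chromosome 11, 70130329-70137550, plus strand) was instead highest in IFNα9 tumors. Its lowest, median and highest levels were 14.2 (31.0 without tumor 7), 62.2 and 95.4 CPM in GFP tumors, 38.7, 66.2 and 99.9 CPM in IFNα4 tumors and 75.5, 135 and 171 CPM in IFNα9 tumors. All of the last but tumors 5 and 10 were above every other tumor. Its log2 fold change was 1.10 ± 0.22 against GFP and 0.93 ± 0.22 against IFNα4 tumors, while IFNα4 against GFP tumors gave 0.17 ± 0.22 and did not pass.

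Clec10a, which encodes the related lectin CD301a and lies 18647 bases from Mgl2, differed from Mgl2 in which comparisons passed, and within types the pair varied together (r = 0.92 in GFP tumors, 0.73 without tumor 7, 0.80 in IFNα4 and 0.83 in IFNα9 tumors). It was lower in IFNα4 than in GFP tumors (log2 fold change -0.87 ± 0.23, edgeR, adjusted p = 0.0014) and did not pass for IFNα9 against GFP tumors (-0.25 ± 0.22, adjusted p = 0.34) or between the interferon types (0.61 ± 0.23, adjusted p = 0.058). The log2 difference of Mgl2 minus Clec10a within a tumor had a lowest, median and highest value of -1.27, -0.79 and -0.12 in GFP tumors and -0.34, 0.23 and 0.51 in IFNα4 tumors. In IFNα9 tumors it was 0.19, 0.53 and 0.88. Mgl2 was the lower of the pair in all 10 GFP tumors and the higher in all 10 IFNα9 tumors, on a scale not corrected for length. Of the 50-base stretches of Mgl2 transcripts, 12.2% also occur in Clec10a, so reads of the pair could in part have been exchanged or left out.

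Chil3 (chromosome 3, 106147554-106167564, minus strand) was higher in IFNα4 tumors than in both other types. Its lowest, median and highest levels were 1.92, 3.02 and 9.45 CPM in GFP tumors, 6.73, 17.4 and 31.0 CPM in IFNα4 tumors and 1.72, 5.25 and 10.2 CPM in IFNα9 tumors. All IFNα4 tumors but 1 were above every GFP tumor. The log2 fold change was 2.27 ± 0.33 for IFNα4 and 0.33 ± 0.32 for IFNα9 against GFP tumors, and -1.93 ± 0.32 between the interferon types. Chil4, the gene of the near-identical protein Ym2, had values of 2.31 ± 0.39, 0.75 ± 0.40 and -1.56 ± 0.37 in the same order, of which the first and the last passed (edgeR, adjusted p = 7.4e-06, 0.11 and 0.0033). As 26.9% of the 50-base stretches of Chil3 occur in other genes, 16.9% in Chil4 alone, reads of this pair too could have been exchanged or left out. Beside Chil3, 7 of 8 monocyte genes were higher in IFNα4 and 5 of 8 in IFNα9 than in GFP tumors, and 3 of 8 were lower and 0 higher in IFNα9 than in IFNα4 tumors. Their summed level ran from 190.3 to 603 CPM in GFP (from 339 without tumor 7), from 1284 to 2376 CPM in IFNα4 and from 724 to 1576 CPM in IFNα9 tumors. Its part in the Chil3 values was not tested.

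Pdcd1lg2 (chromosome 19, 29410919-29471161, plus strand) was higher with both interferons and highest with IFNα9. Its lowest, median and highest levels were 0.178 (0.328 without tumor 7), 0.909 and 1.92 CPM in GFP tumors, the lowest standing for 2 counts, then 1.63, 2.40 and 4.69 CPM in IFNα4 tumors and 1.67, 4.95 and 8.31 CPM in IFNα9 tumors. All IFNα9 tumors but 2 were above every IFNα4 tumor. The log2 fold change was 1.54 ± 0.30 and 2.57 ± 0.30 against GFP tumors, and 1.03 ± 0.27 between the interferon types. Cd274, which encodes PD-L1 and lies 22824 bases away, had log2 fold changes of 2.72 ± 0.25 and 3.18 ± 0.25 against GFP tumors (edgeR, adjusted p = 1.3e-10 and 1.5e-11). Between the interferon types its log2 fold change was 0.46 ± 0.23 and did not pass (edgeR, adjusted p = 0.18). Within a tumor, the log2 CPM of Pdcd1lg2 minus that of Cd274 had a median of -4.44 in GFP, -5.73 in IFNα4 and -5.16 in IFNα9 tumors, with ranges of -5.73 to -3.42, -6.38 to -4.97 and -5.57 to -4.44 that overlapped.

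**Figure D2:**
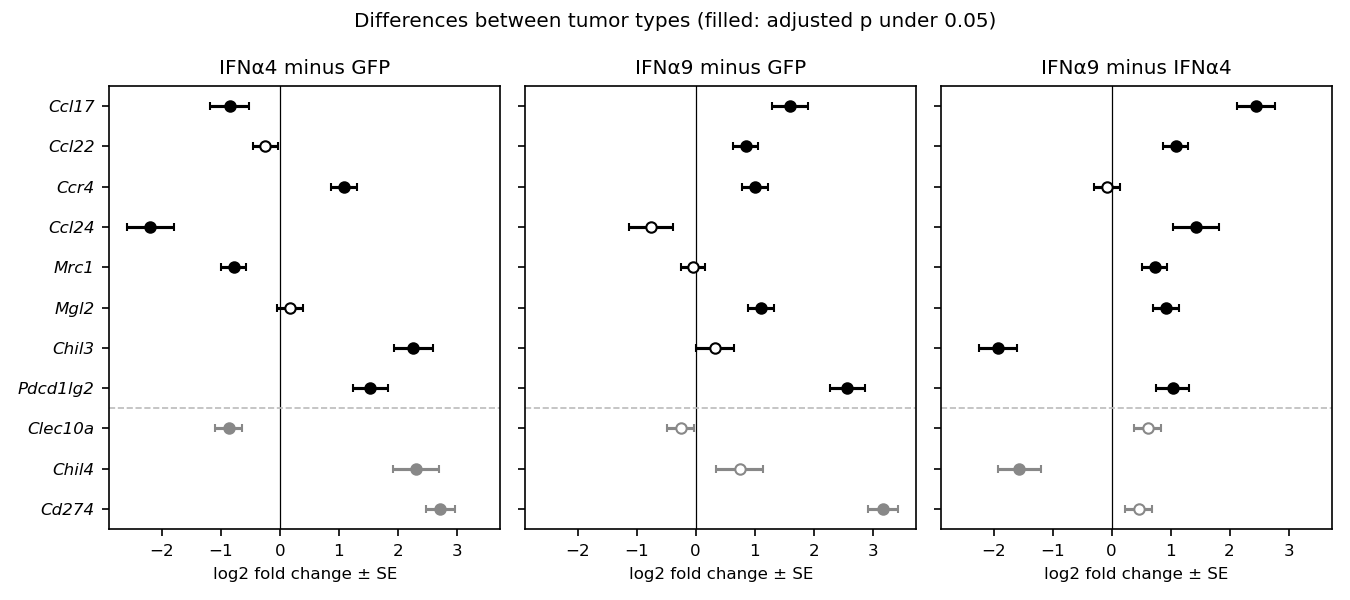
Log2 fold change ± SE of the 8 genes (black) and of the genomic neighbours Clec10a, Chil4 and Cd274 (gray, below the dashed line) in the 3 comparisons of tumor types, with n = 10 tumors per type. Filled points are past the threshold of 0.05 on the adjusted p, which for the 8 chosen genes is a description. Ccl17 and Ccl24 lie left of 0 for IFNα4 minus GFP, and Chil3 lies left of 0 for IFNα9 minus IFNα4.

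**Figure D3:**
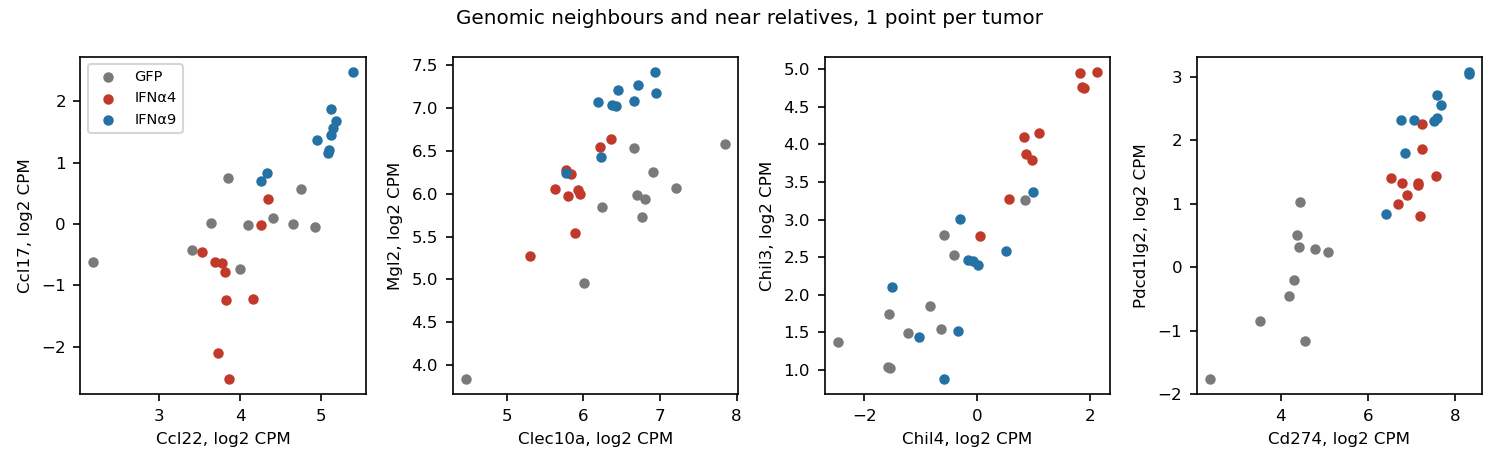
Log2 CPM of Ccl17 against Ccl22, Mgl2 against Clec10a, Chil3 against Chil4 and Pdcd1lg2 against Cd274, with 1 point per tumor and a color for each type. The IFNα9 tumors form a narrow line for Ccl17 and Ccl22 (r = 0.83), and for Mgl2 and Clec10a they lie above the GFP tumors at a like Clec10a level.

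Per kilobase of exon, Mrc1 and Mgl2 were the most abundant of the 8 transcripts in every type. The mean level of Mrc1 was 50.5 ± 18.1 CPM per kilobase (SD, n = 10) in GFP tumors, 29.4 ± 7.46 in IFNα4 tumors and 48.9 ± 14.3 in IFNα9 tumors. That of Mgl2 was 29.2 ± 11.96, 33.0 ± 8.93 and 62.7 ± 14.1 CPM per kilobase, so that it came first in both interferon types, where its gap to Mrc1 was within the larger SD. Ccl22 took place 3 in GFP and IFNα9 tumors (7.65 ± 3.44 and 13.8 ± 3.07 CPM per kilobase), whereas Chil3 took place 3 in IFNα4 tumors (11.95 ± 5.41), ahead of Ccl22 (6.47 ± 1.24). Ccl17 moved from place 6 in GFP tumors (1.75 ± 0.66 CPM per kilobase) to place 7 in IFNα4 (0.97 ± 0.67) and place 4 in IFNα9 tumors (5.34 ± 2.19). Pdcd1lg2 was last in GFP tumors (0.45 ± 0.27), Ccl24 last in IFNα4 tumors (0.90 ± 0.85) and Ccr4 last in IFNα9 tumors (2.05 ± 0.59). The gaps from Ccl24 to Chil3 and from Chil3 to Ccl17 in GFP tumors were within the larger SD. The same held for Pdcd1lg2, Ccl17 and Ccl24 in IFNα4 tumors and for the successive gaps among Chil3, Pdcd1lg2, Ccl24 and Ccr4 in IFNα9 tumors.

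Within a tumor type, the 8 genes form 28 pairs, and Pearson's r of log2 CPM over 10 tumors was positive for 21 pairs in GFP, 21 in IFNα4 and 24 in IFNα9 tumors. The median r was 0.55, 0.18 and 0.31 in this order. The tumors share depth, dissection and immune content, and r over 10 points is imprecise. In GFP tumors, r was over 0.5 for 16 pairs with all tumors and for 5 pairs without tumor 7, and the median fell to 0.21. Much of the common variation in that type therefore rested on 1 tumor. Mrc1 with Mgl2 had r = 0.92 there but rho of 0.59, and without tumor 7 these were 0.77 and 0.43. Without the 2 tumors farthest from the median of Mrc1, r of this pair was 0.27 in GFP tumors. In IFNα4 and IFNα9 tumors its r was 0.33 and 0.59 (rho 0.32 and 0.53), and -0.25 and 0.47 without the 2 farthest tumors. Ccl22 with Pdcd1lg2 had r = 0.87 and rho of 0.87 in GFP tumors, 0.78 and 0.82 without tumor 7, and r = 0.69 without the 2 farthest. Its r was -0.28 in IFNα4 and 0.42 in IFNα9 tumors (rho -0.18 and -0.0061), and -0.44 and 0.083 without the 2 farthest.

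The ligand pair Ccl17 and Ccl22 had r = 0.83 and rho = 0.93 in IFNα9 tumors, with r = 0.49 in GFP tumors (0.27 without tumor 7) and 0.39 in IFNα4 tumors. Tumor 2 was highest and tumors 4 and 5 lowest in IFNα9 for both genes. Ccl17 had its highest r in IFNα4 tumors with Mgl2 (0.80). Chil3 behaved differently by type, with r = -0.46, 0.13 and 0.88 with Ccr4 and r = -0.58, -0.19 and 0.73 with Pdcd1lg2 in GFP, IFNα4 and IFNα9 tumors. In GFP tumors without tumor 7 these were -0.59 and -0.76. In the last type, tumor 10 was lowest for Ccr4, Ccl24, Mgl2 and Chil3, and tumor 5 was lowest for Mrc1 and Pdcd1lg2. Ccl24 followed Ccr4 in GFP tumors (r = 0.88, and 0.83 without tumor 7) and had r = -0.50 with Mrc1 in IFNα9 tumors. Differences between these coefficients were not tested.

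**Figure D4:**
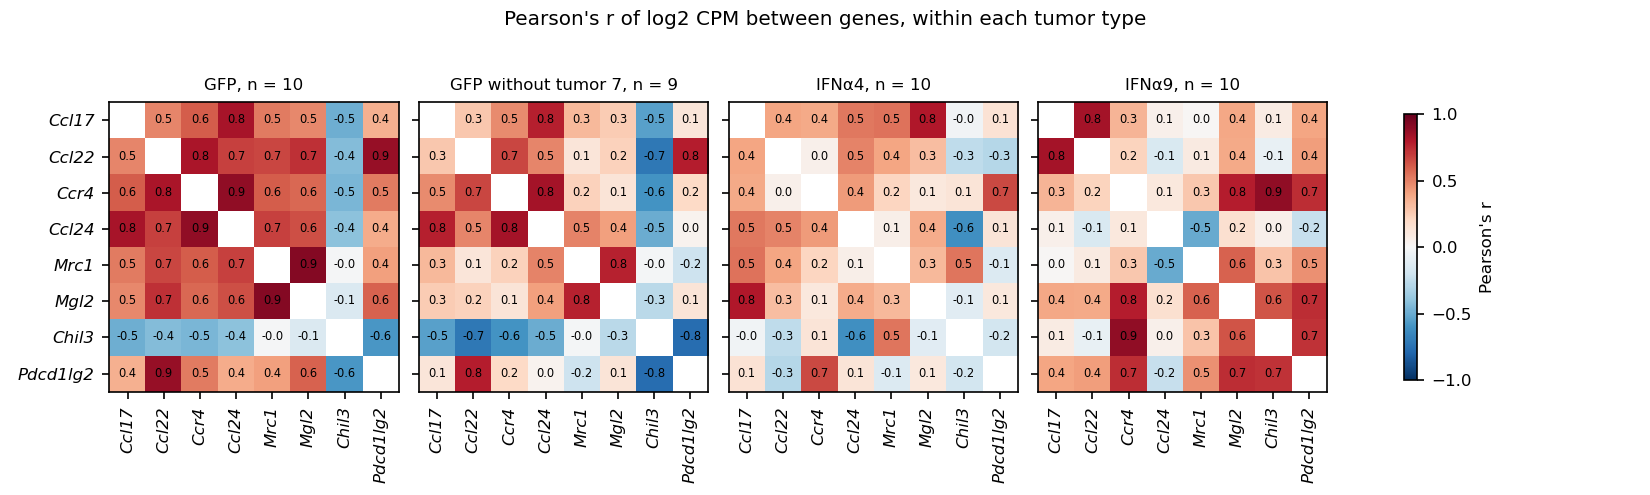
Pearson's r of log2 CPM for each pair of the 8 genes in GFP tumors (with and without tumor 7), IFNα4 and IFNα9 tumors, colored from -1 (blue) to 1 (red). Chil3 has negative r with most genes in GFP tumors, and in IFNα9 tumors it has r = 0.88 with Ccr4 and 0.73 with Pdcd1lg2.

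For each of the 8 genes, the tested genes with the most similar pattern were ranked by r over 30 tumors after centring on the mean of each type, a description without a test. Mrc1 was closest to Dab2 (r = 0.94), the scavenger receptor gene Cd163 (0.92) and Pros1 (0.92), which were 0.91, 0.89 and 0.88 without GFP tumor 7. Mgl2 was closest to Plpp3, Akr1c18, Cilp, Cd209d and Cd209a, with r from 0.89 to 0.90 (0.79 to 0.84 without that tumor). The last pair, genes of DC-SIGN-like lectins, had 0.84 and 0.83 without it. Chil3 was closest to Chil4 (0.80), and Pdcd1lg2 to Etv6 (0.82), Slamf8 (0.78) and the NF-κB subunit gene Nfkb1 (0.77), which were 0.80, 0.78, 0.70 and 0.70 without that tumor. A high r over all tumors did not always hold in each type. Etv6 had r = 0.88, 0.18 and 0.98 with Pdcd1lg2 in GFP, IFNα4 and IFNα9 tumors. Ccr4 was closest to H2-M5 (0.88) and Tiam1 (0.83), or 0.84 and 0.78 without GFP tumor 7. Ccl17, Ccl22 and Ccl24 were closest to Zfp74 (0.67), Ces4a (0.82) and Camkv (0.72), which were 0.66, 0.63 and 0.70 without it. For Ccl22 this rank rested on GFP tumor 7, since without it Ces4a was not among the 5 closest genes. Ces4a had r = 0.92, 0.76 and 0.34 with Ccl22 in GFP, IFNα4 and IFNα9 tumors.

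Il4, Il4ra and Stat6, the core of the upstream pathway, did not pass in any comparison. Il4 had 18 to 56 counts per tumor, with mean levels of 2.13 ± 0.75 CPM (SD, n = 10) in GFP, 1.78 ± 0.52 in IFNα4 and 1.96 ± 0.62 in IFNα9 tumors. Its log2 fold changes of -0.25 ± 0.20, -0.11 ± 0.20 and 0.14 ± 0.20 did not pass (edgeR, adjusted p = 0.28, 0.65 and 0.69). Il13 had 0 to 12 counts per tumor and was too low to test. Il4ra, the shared receptor chain, had 0.07 ± 0.19, -0.24 ± 0.19 and -0.32 ± 0.19 (edgeR, adjusted p = 0.75, 0.29 and 0.28). Stat6 had 0.02 ± 0.07, -0.06 ± 0.07 and -0.07 ± 0.07 (edgeR, adjusted p = 0.84, 0.52 and 0.53). Transcript levels do not show how active STAT6 was.

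Of 12 tested genes of the IL-4 and IL-13 receptors and their signaling, 8 were higher in IFNα4 and 6 in IFNα9 than in GFP tumors, and 0 were lower. Between the interferon types, 1 of 12 passed, Ptpn6, the gene of the phosphatase SHP-1, which was lower in IFNα9 tumors (log2 fold change -0.40 ± 0.13, edgeR, adjusted p = 0.032). The medians of the list were 0.60, 0.41 and -0.11, beside 0.01, -0.0031 and -0.0055 for all genes. The largest changes against GFP tumors were those of Il2rg, the common γ chain of several cytokine receptors (1.60 ± 0.20 and 1.28 ± 0.20), and of Ptpn6 (1.34 ± 0.13 and 0.94 ± 0.13), which leukocytes express widely. Il13ra1, the partner chain of IL-4Rα in the type II receptor, was also higher (0.70 ± 0.14 and 0.61 ± 0.14). Socs1 was not analysed here.

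A list of other genes that IL-4 induces in myeloid cells also held genes that changed in each direction. In whole tumors other cells can make these transcripts too, and which cells made them was not tested. Of 18 tested, 10 were higher and 4 lower in IFNα4, and 8 higher and 1 lower in IFNα9, than in GFP tumors. Between the interferon types, 4 were higher and 5 lower in IFNα9 tumors, and the medians were 0.68, 0.56 and -0.13. Ccl11, the eotaxin gene, was higher in both interferon types (log2 fold change 2.84 ± 0.20 and 1.97 ± 0.19), as was the lipoxygenase gene Alox15 (2.36 ± 0.29 and 1.63 ± 0.29). Ear2, a ribonuclease gene, was higher in IFNα9 than in IFNα4 tumors (1.09 ± 0.21, edgeR, adjusted p = 0.00057). Ccl11 and Chil4 were lower in that comparison (-0.87 ± 0.18 and -1.56 ± 0.37, edgeR, adjusted p = 0.0013 and 0.0033). Arg1 and Retnla were not analysed here. Beside this list, 7 and 5 of 8 monocyte genes and 4 and 1 of 8 keratinocyte genes were higher in IFNα4 and IFNα9 than in GFP tumors. Their part in these values was not tested.

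Among the other CC chemokine genes, more were lower than higher in IFNα9 against IFNα4 tumors, unlike Ccl17 and Ccl22. Of 15 tested, 10 were higher and 2 lower in IFNα4, and 10 higher and 1 lower in IFNα9, than in GFP tumors, with medians of 1.54 and 1.26. Of the same 15, 2 were higher and 7 lower in IFNα9 than in IFNα4 tumors, with a median of -0.63. The 7 included Ccl4 (log2 fold change -1.80 ± 0.20, edgeR, adjusted p = 2.2e-07), the monocyte attractant Ccl7 (-0.93 ± 0.16, adjusted p = 9.2e-05) and Ccl11. The 2 higher genes were Ccl6 (1.39 ± 0.16, edgeR, adjusted p = 7.3e-07) and Ccl8 (0.80 ± 0.21, adjusted p = 0.0065). Against GFP tumors, Ccl6 and Ccl8 were lower in IFNα4 tumors (-1.67 ± 0.17 and -1.60 ± 0.21), the direction of Ccl24 and Mrc1. Ccl8 was named for being 1 of only 2 higher genes, after its values were seen.

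Markers of the cells that can make the 8 transcripts were compared in the same fit, and their part in the values above was not tested. Of 9 tested macrophage genes, 4 were higher and 1 lower in IFNα4 and 4 higher in IFNα9 than in GFP tumors, and 1 was lower in IFNα9 than in IFNα4 tumors. That gene was Fcgr1, an interferon-induced Fc receptor (log2 fold change -0.85 ± 0.17, edgeR, adjusted p = 0.00072). Csf1r, the receptor gene that defines the lineage, did not pass in any comparison (-0.28 ± 0.18, -0.05 ± 0.18 and 0.24 ± 0.18, edgeR, adjusted p = 0.18, 0.84 and 0.41). The summed macrophage level ran from 384 to 1763 CPM in GFP (from 767 without tumor 7), from 999 to 1750 in IFNα4 and from 894 to 1663 in IFNα9 tumors. Adgre1 was not analysed here.

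Of 8 conventional DC genes, 5 and 7 were higher in IFNα4 and IFNα9 than in GFP tumors, and 1 was higher in IFNα9 than in IFNα4 tumors. Their summed level ran from 27.8 (57.1 without GFP tumor 7) to 118, from 128 to 180 and from 133 to 255 CPM in GFP, IFNα4 and IFNα9 tumors. For CCR7 DCs, migratory cells that are a known source of CCL17 and CCL22, 3 of 7 tested genes were higher in IFNα4, and 2 higher and 1 lower in IFNα9, than in GFP tumors. Between the interferon types, 0 of 7 were higher and 1 was lower in IFNα9 tumors, and the summed level ran from 97.3 (112.6 without tumor 7) to 157 CPM in GFP, from 132 to 156 CPM in IFNα4 and from 102 to 133 CPM in IFNα9 tumors. Tbc1d4 alone, with means of 64.8, 66.6 and 63.0 CPM, made up much of this sum, and Fscn1, the gene that was lower in IFNα9 than in GFP tumors, had means of 33.3, 29.5 and 21.8 CPM. The median sum was thus lower in IFNα9 than in GFP tumors (125 and 131 CPM), while the median of the mean log2 CPM of the 7 genes, which weights them equally, was higher (3.50 and 3.28). Ccr7 itself had log2 fold changes of 0.47 ± 0.23 and 0.54 ± 0.23 against GFP tumors and 0.07 ± 0.23 between the interferon types, of which only the second passed (edgeR, adjusted p = 0.074, 0.049 and 0.88). No marker that was counted in these lists was at 0 in all tumors.

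**Figure D5:**
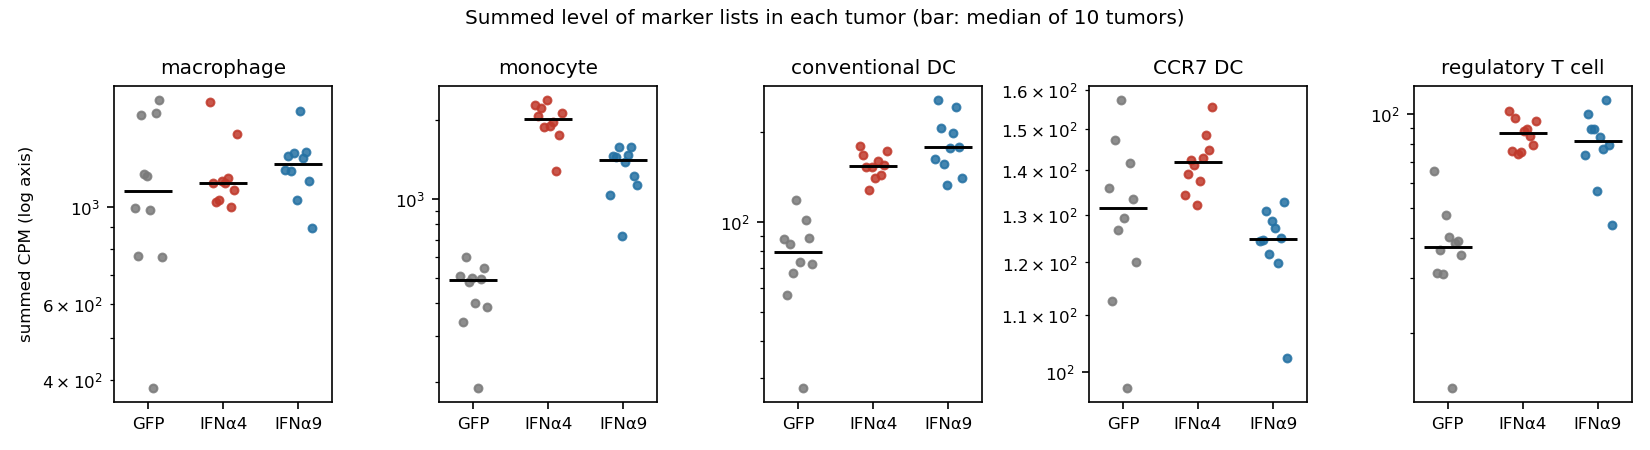
Summed CPM (log axis) of the macrophage, monocyte, conventional DC, CCR7 DC and regulatory T cell marker lists in each tumor by type, with a bar at the median of 10 tumors. Monocyte markers are highest in IFNα4 tumors (1284 to 2376 CPM), and GFP tumor 7 is the lowest point of its type in all 5 panels.

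The 8 genes were also correlated with the scores of the macrophage, CCR7 DC, T cell and keratinocyte lists within each type, which gave 96 relations. A score was the mean log2 CPM of the tested genes in a list. Genes and lists were chosen with earlier results of these data known, which the permutation p does not take into account. By Pearson's r, 27 of the 96 had a permutation p under 0.05 before adjustment and 1 after Benjamini-Hochberg adjustment over all 96, and 0 passed by both r and rho. The relation that passed was that of Chil3 with keratinocyte genes in IFNα4 tumors, a negative one (r = -0.92, permutation p = 0.00012, adjusted p = 0.012, n = 10). Spearman's rho was -0.88 (permutation p = 0.0015, adjusted p = 0.15). Without the 2 tumors farthest from the median score, r was -0.81 (permutation p = 0.013, adjusted p = 0.41), with 8 tumors left. The median r over the 32 relations of a type was 0.62 in GFP, 0.05 in IFNα4 and 0.46 in IFNα9 tumors, and 0.17 in GFP tumors without tumor 7.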

How the data were processed

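RNA of 30 whole tumors, grouped by their labels, was sequenced from 1 end (50 bases, stranded libraries of mRNA). Alignment by the authors used HISAT2 (2.0.4, with FastQC 0.11.3, per the submitters' processing notes) and a mouse genome named mm10 in the labels and mm11 in the study's methods. The authors deposited raw counts per gene, without normalization. The strand setting, the overlap mode and the handling of reads with several alignments are not given in the sources used here. Gene symbols were found in GENCODE M21 (GRCm38) for 39495 of 39676 identifiers.

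A filter at a mean of 10 counts per tumor left 15926 genes. The 3 types were compared in one edgeR 4.0.16 quasi-likelihood fit (R 4.3.3) after TMM scaling, with Benjamini-Hochberg adjustment and a threshold of 0.05. The SE is the fold change over the root of F, and log2 CPM took a prior count of 2. The fit was tested on simulated data. Correlations with list scores took 100000 permutations, two-sided. Alternatives were DESeq2 1.42.0, other scalings, filters and sample sets, a block on replicate number and leaving out each tumor. Nothing in the labels beyond "biol rep" states how tumors relate, so p-values measure the spread between these tumors.

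The 8 genes and all lists were chosen with earlier results of these data known. Besides the 8, the genes named were, of the lists described, the 3 largest changes past the threshold, defining genes (Il4, Il13, Il4ra, Stat6, Clec10a, Chil4, Cd274, Adgre1, Csf1r, Ccr7, Foxp3), the nearest protein-coding genes and the 5 most similar genes of each, named in part. Exceptions are marked.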

Additional observations from a re-analysis of the deposited data

Results flagged for a closer look

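Scores of the marker lists, the mean log2 CPM of their tested genes, and the levels of the 8 genes were searched within each type for a tumor far from the rest by Dixon's test. Of 72 groups of 10 tumors, 10 held such a tumor, where chance gives about 3.6, and none of the 10 was a group of values of the 8 genes. GFP tumor 7 had the lowest score of its type, apart from the other tumors, for 8 lists. Its log2 CPM score was 3.12 for other IL-4-induced myeloid genes, 4.91 for macrophage, 3.24 for monocyte, 2.14 for CCR7 DC, -0.25 for regulatory T cell, 1.74 for ILC2 and Th2, -2.39 for eosinophil and 6.72 for keratinocyte genes. This tumor was also lowest of its type for Ccl22, Ccr4, Mrc1, Mgl2 and Pdcd1lg2, and leaving it out changed no call on the 8 genes. IFNα9 tumor 10 had the lowest score, apart from the others, for CCR7 DC genes (3.14) and keratinocyte genes (7.67), and was lowest of its type for Ccr4, Ccl24, Mgl2 and Chil3. Both tumors had the highest summed level of the 3 melanocyte genes tested in their type. It was 22820 CPM in GFP tumor 7, beside 7214 to 13040 CPM in the other GFP tumors, and 8916 CPM in IFNα9 tumor 10, beside 3367 to 5527 CPM in the other IFNα9 tumors.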

How the results depend on the processing

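The log2 fold changes of the 8 genes in 3 comparisons were refitted under each alternative. Of these fits, 883 kept their side of the threshold, 4 came past it, 1 lost it and 0 called values reversed. Uncalled values near 0 took the other sign for Mrc1 in IFNα9 against GFP tumors in 7 fits (up to 0.04) and for Ccr4 in IFNα9 against IFNα4 tumors in 1. Leaving out 1 tumor at a time, Ccl17 in IFNα4 against GFP tumors ran from -1.09 to -0.71 and lost its call without GFP tumor 6. Ccl24 in IFNα9 against GFP tumors ran from -0.96 to -0.67, and gained a call without GFP tumor 2, IFNα4 tumor 8 or IFNα9 tumor 5, and also when only the 20 tumors compared were fitted (-0.76). The number of the 8 genes past the threshold stayed at 5 or 6, 5 or 6, and 7 in the 3 comparisons. The 1 adjusted relation with a list score became 0 without the 2 tumors farthest from the median score, which leaves 8 tumors. Over all genes, fitting only the 20 tumors compared gave 4338 calls between the interferon types in place of 2833. Library totals in place of TMM moved the median of all genes from -0.0031 to 0.097 in IFNα9 against GFP tumors, and the calls from 4281 higher and 4595 lower to 5051 and 3610. Replicate numbers did not pair the tumors. Over 30 pairs of same-numbered tumors, deviations from the type means had r from -0.27 to 0.30 with a median of -0.05, and 2 pairs correlated best with their own number. With the replicate block, 6, 5 and 7 of the 8 genes passed, as without it. With 1 or 2 counts in the lowest tumors, Ccl17, Ccl24 and Pdcd1lg2 are the values most limited by depth, and such limits cover counting error only.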

Other observations

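Other marker lists were compared over the same 3 comparisons, with values given as counts of tested genes past the threshold in edgeR. T cell genes were higher for 9 of 9 in IFNα4 and for 8 of 9 in IFNα9 against GFP tumors, with medians of 2.77 and 2.27, and 0 of 9 passed between the interferon types. Listed genes of ILC2 and Th2 cells, which make IL-4 and IL-13, were higher for 5 of 7 in each interferon type than in GFP tumors. The other 2, Il4 and Areg, did not pass, and Il5, Il13 and Ptgdr2 were too low to test. Such counts do not give the number of these cells. By single-cell sequencing, the paper reported fewer ILC2s in IFNα4 than in control tumors. Between the interferon types 1 of 7, Il1rl1, was lower in IFNα9 than in IFNα4 tumors. Il1rl1, the gene of the IL-33 receptor ST2, had mean levels of 27.7 CPM in GFP, 164 CPM in IFNα4 and 44.2 CPM in IFNα9 tumors, an order like that of Chil3. Its log2 fold change between the interferon types was -1.90 ± 0.29 (edgeR, adjusted p = 2.2e-05). Klrg1, which was also among the 5 genes most similar to Pdcd1lg2 (r = 0.76, or 0.70 without GFP tumor 7), was higher in both interferon types (2.31 ± 0.33 and 3.11 ± 0.34, edgeR, adjusted p = 6.7e-07 and 8.5e-09).

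Neutrophil genes were higher for 3 and lower for 3 of 7 in IFNα4, higher for 2 and lower for 3 in IFNα9 tumors, and lower for 3 in IFNα9 against IFNα4 tumors. Eosinophil genes were higher for 3 of 4 in each interferon type, and 1 of 4 was higher in IFNα9 than in IFNα4 tumors. Keratinocyte genes were higher for 4 and 1 of 8, and fibroblast genes for 3 and 2 of 6. Between the interferon types, 0 of 8 keratinocyte genes passed and 1 of 6 fibroblast genes was lower with IFNα9. Skeletal muscle genes were lower with IFNα9 for 4 of 7 against GFP and for 6 of 7 against IFNα4 tumors, and 0 of 7 passed for IFNα4 against GFP tumors. All 3 melanocyte genes tested were lower in both interferon types, and 2 of 3 were higher with IFNα9 than with IFNα4.

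Trim71, which lies 2217 bases from Ccr4, had a pattern unlike that of its neighbour. It was lower in IFNα4 than in GFP tumors (log2 fold change -2.10 ± 0.26, edgeR, adjusted p = 4e-08) and than in IFNα9 tumors (2.17 ± 0.26 for IFNα9 against IFNα4, adjusted p = 7.1e-07). IFNα9 against GFP tumors gave 0.08 ± 0.23 (adjusted p = 0.79). Its counts ran from 4 to 11 per tumor in IFNα4 tumors.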
